A study of Mus musculus with 14 samples.

Results

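Long intergenic non-coding RNA genes (lincRNA genes) were followed in the mouse hypothalamus, in RNA bound to ribosomes that carry phosphorylated S6 (IP) and in the RNA of the whole lysate (input). The members were the entries with the biotype lincRNA and a mean of at least 1 FPKM (a read level corrected for transcript length and for the size of the library) over the 14 libraries. Malat1, Neat1, Miat, Gas5, Epb41l4aos, Snhg6 and Snhg8 were left out. This gave 272 of the 14531 entries of the table. Of 406 lincRNA entries in all, 129 lay under 1 FPKM, and 5 of the 7 genes left out were among the 277 above it. The members nearest to the threshold had mean levels of 1.00, 1.02 and 1.02 FPKM, and the entries just under it had 0.956, 0.983 and 0.983 FPKM. The members were chosen by their mean level, which is therefore given as a description, and no contrast between groups was used to choose them.

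The 4 groups were IP libraries of mice fed a high-fat diet (IP HFD, 4 libraries) or control diet (IP NCD, 3 libraries), and input libraries of the same diets (input HFD, 4 libraries, and input NCD, 3 libraries). All mice were 10-week-old males of the strain C57BL/6N, which the labels also give as the genotype, each diet was given for 3 days, and each IP was made from a pool of 8 hypothalami. Phosphorylation of S6 marks active cells, and the title of the series names activated hypothalamic cells in acute high-fat feeding as its subject. An IP with a control antibody was not analysed here, so RNA carried along without such ribosomes is part of the IP values.

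LincRNAs are transcribed, capped and usually spliced and polyadenylated like mRNAs, but they hold no long conserved reading frame. Some stay in the nucleus and act on nearby genes or chromatin, some act in the cytoplasm on miRNAs, proteins or translation, and some serve mainly as hosts from which miRNAs or small nucleolar RNAs are cut. Many are found in the brain, often in few cell types and close to genes of transcription factors. A cytoplasmic RNA can be bound by ribosomes without giving a stable protein, so an RNA recovered with ribosomes is not thereby shown to be translated.

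The members were mostly scarce. Their mean level was 3.24 FPKM in the median and ran from 1.00 to 323 FPKM, 87 members lay under 2 FPKM, and 42 reached 10 FPKM. The 10 most abundant members held 46.4% of the summed level. In GENCODE M21, which lists 271 of the 272 by Ensembl identifier, 266 are still lincRNAs, and 6330403K07Rik is now a protein-coding gene. Most carry only a model name: 132 begin with Gm and 99 end in Rik. Gm29595 has no entry there and so no position.

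Input libraries were much alike, and IP libraries varied more. The spread within a group, as the median SD of log2(FPKM + 1) over the members, was 0.73 in IP HFD, 0.90 in IP NCD, 0.25 in input HFD and 0.22 in input NCD libraries. Over all tested entries it was 0.55, 0.71, 0.17 and 0.17 in the same order. The members took 0.774% to 0.913% of the summed FPKM of nuclear genes in IP libraries and 0.937% to 1.06% in input libraries. Mitochondrial genes took 2.66% to 15.6% of FPKM in IP and 23.5% to 39.1% in input libraries. Both IP libraries of index 0, the number the table gives to its columns, stood apart, with 12.8% (HFD) and 15.6% (NCD) mitochondrial FPKM and 34 and 36 members listed at 0. The IP NCD library of index 2 listed 35 members at 0, and the other IP libraries listed 3 to 13. Hypothalamic peptide genes marked the tissue, and Pmch was the most abundant of those followed. It had 122 to 339.8 FPKM in IP HFD, 143 to 355 in IP NCD, 77.1 to 119 in input HFD and 76.7 to 98.3 in input NCD libraries. Oxt and Ghrh were not analysed here, and Agrp was listed at 0 in at least 1 library of IP NCD and of input HFD. So were Npy in IP HFD, Pomc and Gal in IP NCD, and Avp in IP HFD and in IP NCD.

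Levels in IP and input were compared on log2(FPKM + 1) with limma over all 12484 entries with a mean of at least 1 FPKM. Differences are IP minus input with their standard error (±), a difference of 1 is a 2-fold change, and adjusted p is by Benjamini-Hochberg over all these entries, with a threshold of 0.05. In these values, fewer cells of a type and less RNA per cell cannot be told apart. Of the 272 members, 121 (44.5%) passed, 65 higher and 56 lower in IP. Over all tested entries 43.9% passed, so this share is not a result about lincRNA genes. The median difference was 0.22 over the members and 0.00 over all tested entries. The split moved with the scaling between libraries: 96 higher and 52 lower after quantile normalization, and 41 higher and 84 lower after scaling to the summed FPKM of nuclear genes, which moved the median of all entries to -0.44. Of all entries 22.7% were higher and 27.5% lower after quantile normalization, and 14% higher and 39% lower after scaling to nuclear FPKM. IP and input libraries did not overlap within either diet for 71 members (26.1%), 33 of them higher and 38 lower in IP, against 24.8% of all tested entries (14.6% higher and 10.2% lower). Within HFD, 104 members passed (53 higher, 51 lower), where 33.6% of all entries did (19% higher, 14.6% lower). The split within HFD was 82 higher and 48 lower after quantile normalization, where 17.8% of all entries were higher and 21.6% lower. After scaling to nuclear FPKM it was 35 higher and 69 lower, where 11.4% of all entries were higher and 30.8% lower. Within NCD, 73 passed (32 higher, 41 lower), where 26.5% of all entries did (15.7% higher, 10.8% lower). The split within NCD was 42 higher and 41 lower after quantile normalization, where 13.9% of all entries were higher and 17.7% lower. After scaling to nuclear FPKM it was 23 higher and 56 lower, where 9.36% of all entries were higher and 24.7% lower. With the NCD libraries alone in the fit, 46 members passed, where 16.3% of all entries did. In both diets 58 members passed, all in the same direction in both. The share of all tested entries that did so was not taken, so this count is not a result about lincRNA genes.

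A member can reach 1 FPKM through 1 fraction alone. The input mean was under 1 FPKM for 52 members, of which 18 passed as higher and 0 as lower, and the IP mean was under 1 FPKM for 28, of which 0 passed as higher and 23 as lower. Among the 192 members with at least 1 FPKM in both, 47 were higher and 33 lower, with a median of 0.11. Over all tested entries, taken without this condition, 23.4% were higher and 20.5% lower. The counts among the 192 are therefore not a result about lincRNA genes. Markers of several cell types moved between the fractions as well. Of the neuronal markers 8 of 8 tested were higher in IP (summed 11905 to 14904 FPKM in IP HFD, 8556 to 12714 in IP NCD, 5343 to 6102 in input HFD and 5384 to 6291 in input NCD libraries). Astrocyte markers were lower in IP for 7 of 7 (208 to 417, 233 to 482, 763 to 861 and 769.9 to 796 FPKM in the same order of groups), and oligodendrocyte markers were lower for 6 of 9 and higher for 1 (522 to 718, 596 to 966, 1282 to 1430.1 and 1192 to 1488 FPKM). Choroid plexus markers were higher for 5 of 6 (257 to 1405, 292 to 574, 18.1 to 114 and 38.03 to 52.4 FPKM, with Folr1 at 0 in at least 1 library), and markers of blood cells for 4 of 5 (147 to 470.3, 214 to 718, 17.2 to 27.3 and 11.6 to 17.1 FPKM). Microglial markers were higher for 1 of 7 (38.1 to 47.3, 31.9 to 43.8, 36.4 to 41.8 and 31.5 to 33.8 FPKM), and of 2 endothelial markers tested 0 passed (0.592 to 1.85, 0.0580 to 7.54, 2.93 to 4.81 and 1.71 to 4.00 FPKM, with Ly6c1 at 0 in at least 1 library). The part of these cell types in the members' differences was not tested.

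**Figure D1:**
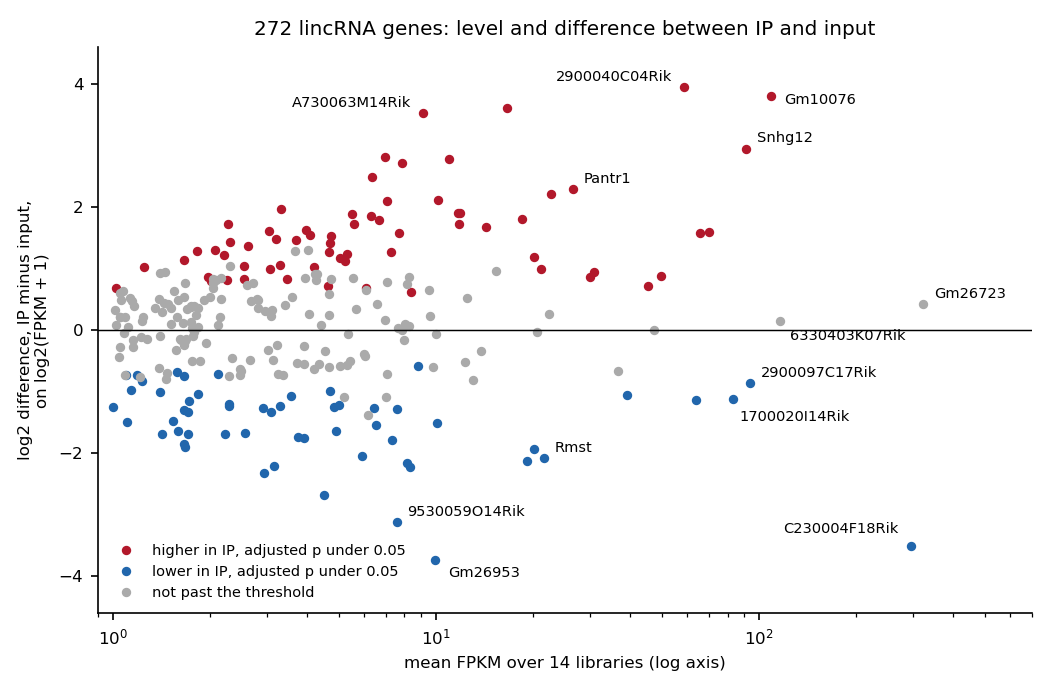
Each point is 1 of the 272 lincRNA genes; the horizontal axis is the mean FPKM over the 14 libraries (log axis) and the vertical axis the log2 difference between IP and input. The 65 red genes passed as higher in IP and the 56 blue ones as lower, while Gm26723, at 323 FPKM, lies at 0.42 and did not pass.

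The most abundant members did not move together. Gm26723, the most abundant, had 398, 421, 503 and 289.9 FPKM in IP HFD and 119.98, 433 and 495 in IP NCD libraries. Input libraries had 238, 268, 315 and 348 (HFD) and 169.8, 252 and 269 FPKM (NCD), groups that overlapped (0.42 ± 0.27, adjusted p = 0.22). It passed as higher without the IP NCD library of index 0 (0.74, adjusted p = 0.0015), and its difference was -0.72 after quantile normalization (adjusted p = 0.035) and -0.14 after scaling to nuclear FPKM. It is among the 83 members with exons opposite another gene. Strand is not kept by the kit used for these libraries, so reads of such a member and of the other gene cannot be told apart. 6330403K07Rik had 84.4, 135, 109 and 108 FPKM in IP HFD and 141, 149.8 and 123 in IP NCD libraries. Input libraries had 97.8, 118, 123 and 108 (HFD) and 102, 107 and 118 FPKM (NCD). It did not pass either (0.14 ± 0.12, adjusted p = 0.36), but was lower in IP after quantile normalization (-0.80, adjusted p = 2.3e-04) and after scaling to nuclear FPKM (-0.42, adjusted p = 0.025). 1300002E11Rik and D130017N08Rik were higher in IP, with 146, 77.7, 160.02 and 65.9 FPKM in IP HFD and 76.8, 112 and 113 in IP NCD libraries for the first and 77.3, 84.6, 95.7 and 75.4 FPKM in IP HFD and 139.5, 83.0 and 136 in IP NCD libraries for the second. All their input libraries lay at 29.2 to 37.9 FPKM, below every IP library (1.59 ± 0.20 and 1.59 ± 0.13, adjusted p = 1.1e-05 and 1.8e-07). Gm28050 was lower, with 41.0, 38.4, 25.9 and 34.5 FPKM in IP HFD and 62.5, 26.6 and 52.2 in IP NCD libraries. Input libraries had 97.8, 81.8, 78.7 and 79.0 (HFD) and 118, 71.9 and 85.2 FPKM (NCD) (-1.13 ± 0.19, adjusted p = 1.9e-04).

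2 abundant members that are known for their link to miR-7, C230004F18Rik and 1700020I14Rik, were lower in IP. C230004F18Rik (also called Cdr1os) is transcribed across the region from which the circular RNA Cdr1as is made, a brain RNA that binds miR-7, and its exons lie opposite Cdr1. 1700020I14Rik, known as Cyrano or Oip5os1, holds a highly paired miR-7 site through which, in mice, it brings about the decay of this miRNA. The mature sequences of the 2 forms of miR-7 (RefSeq, GRCm38.p6) are shown with the seed, bases 2 to 8, in capitals, since both members hold its complement GTCTTCC.
miR-7a-5p (Mir7-1, chromosome 13): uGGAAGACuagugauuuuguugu
miR-7b-5p (Mir7b, chromosome 17): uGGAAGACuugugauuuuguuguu
The site of 1700020I14Rik, bases 2935 to 2959 of its longest GENCODE M21 transcript (chr2:119602137-119602161, plus strand, GRCm38), is shown. Bases complementary to miR-7a-5p from its base 2 on are in capitals, 7 at the seed and 14 beyond it. The last base of the stretch, opposite the first base of the miRNA, was not compared and is in small letters.
1700020I14Rik: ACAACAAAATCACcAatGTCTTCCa
In the longest transcript of C230004F18Rik (19658 nt) a search of the transcript strand found GTCTTCC at 125 places, all in 1 exon of 19035 nt. The stretch with most sites, bases 9144 to 9383 (chrX:61183648-61183887, plus strand, GRCm38), holds 13 of them, in capitals.
C230004F18Rik: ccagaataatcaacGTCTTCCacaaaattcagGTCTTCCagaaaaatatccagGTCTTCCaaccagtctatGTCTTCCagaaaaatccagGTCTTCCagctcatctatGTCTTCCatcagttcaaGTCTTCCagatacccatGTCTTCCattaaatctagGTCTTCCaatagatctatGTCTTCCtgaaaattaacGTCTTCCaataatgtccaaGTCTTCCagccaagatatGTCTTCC
Of the 271 members with a transcript sequence, 54 (19.9%) held at least 1 such match, and outside C230004F18Rik the most was 3. Of these 54, 11 (20.4%) passed as higher and 14 (25.9%) as lower in IP, with a median of -0.03, where 23.4% of all tested entries passed as higher and 20.5% as lower, so these shares are not a result about the members. A match is a description of the sequence and not a measured site.

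C230004F18Rik had 71.0, 64.7, 35.8 and 32.6 FPKM in IP HFD and 117, 34.0 and 20.6 in IP NCD libraries. Input libraries had 735, 457, 475 and 471 (HFD) and 667, 527 and 441 FPKM (NCD). Each IP library lay far below every input library, and the group means were 51.0 ± 19.6 FPKM in IP HFD (SD, n = 4), 57.1 ± 52.2 in IP NCD (n = 3), 534 ± 134 in input HFD (n = 4) and 545 ± 114 in input NCD libraries (n = 3). The difference was -3.50 ± 0.31, adjusted p = 3.5e-07, and it was -3.41 within HFD and -3.59 within NCD. Reads from a circular RNA of the same exon, or from Cdr1 on the other strand, are part of this entry, and Cdr1as itself has no entry used here. 1700020I14Rik had 80.9, 35.8, 55.4 and 40.1 FPKM in IP HFD and 88.5, 47.2 and 34.3 in IP NCD libraries. Input libraries had 124, 101, 98.9 and 96.3 (HFD) and 144, 110.05 and 109.8 FPKM (NCD). All 7 IP libraries were below all 7 input libraries, by a smaller margin than for C230004F18Rik (-1.11 ± 0.21, adjusted p = 6.3e-04).

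2900097C17Rik is Norad, a cytoplasmic RNA that holds many binding motifs of Pumilio proteins, which repress mRNAs, and helps to keep chromosomes stable. Its single exon of 4915 nt on chromosome 2 held the motif TGTANATA at 11 places on the transcript strand, the highest number among the members, where 68 of 271 (25.1%) held at least 1. The stretch with 2 neighbouring motifs, in capitals, is shown (chr2:156390522-156390581, minus strand, GRCm38).
2900097C17Rik: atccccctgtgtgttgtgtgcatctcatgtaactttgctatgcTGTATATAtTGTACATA
It had 88.8, 55.7, 59.5 and 46.1 FPKM in IP HFD and 78.6, 63.4 and 75.1 in IP NCD libraries. Input libraries had 135, 102, 115 and 100.3 (HFD) and 160.1, 117 and 119 FPKM (NCD). Every IP library was below every input library (-0.86 ± 0.15, adjusted p = 2.7e-04). Gm7292 on chromosome 6, named because it is a copy, matches part of Norad over its whole length and held 9 of the motifs. It had 11.99, 4.41, 9.09 and 4.09 FPKM in IP HFD and 14.8, 6.88 and 8.55 in IP NCD libraries. Input libraries had 7.60, 6.40, 7.04 and 6.28 (HFD) and 10.3, 7.18 and 7.49 FPKM (NCD), with groups that overlapped (0.09 ± 0.26, adjusted p = 0.8). How the authors' counting split reads between these near-identical copies is not given in the sources used here, so both values are uncertain.

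**Figure D2:**
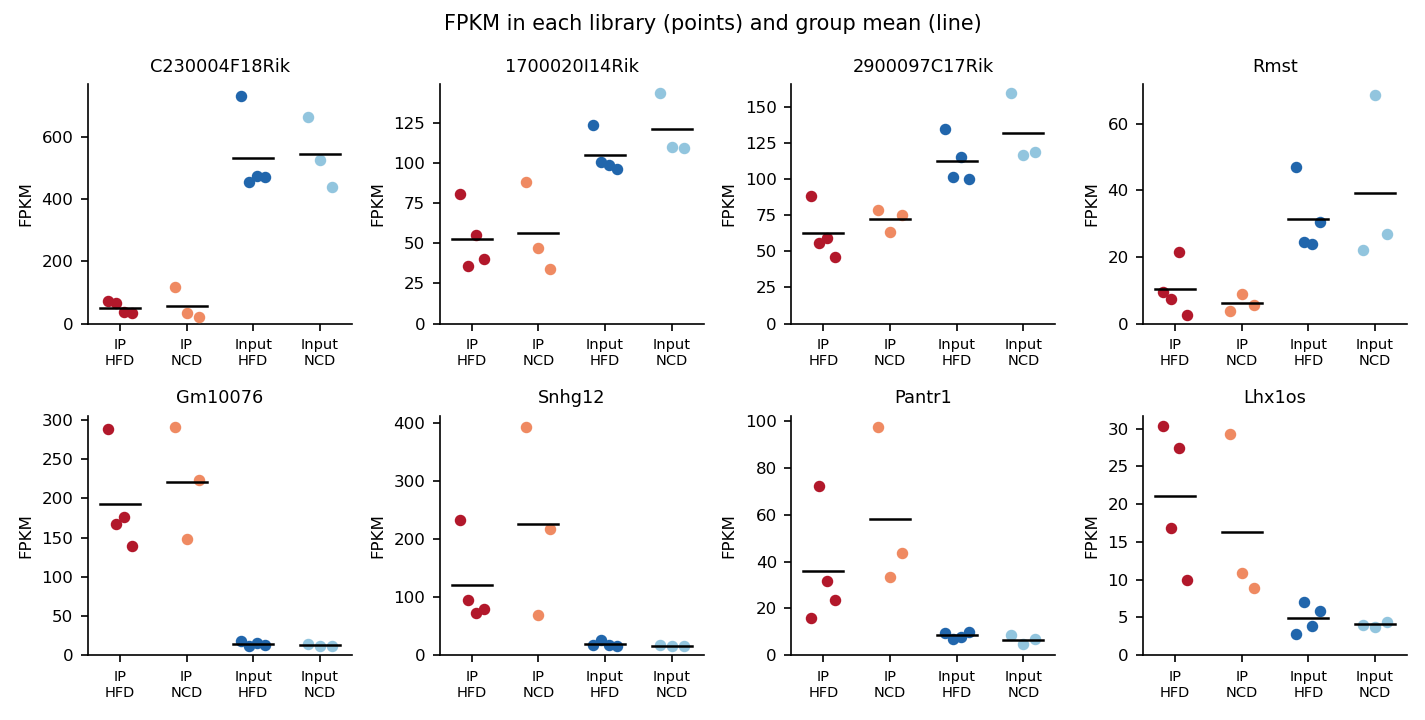
FPKM of 8 members in each of the 14 libraries (points; lines are group means), with IP HFD, IP NCD, input HFD and input NCD libraries from left to right. In the upper row every IP library of the first 3 genes lies below every input library, in Rmst the highest IP library (21.5 FPKM) lies just under the lowest input library (22.2 FPKM), and in the lower row every IP library lies above every input library.

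Hosts of miRNAs moved in both directions, even where they carry the same miRNA. Of the members, 15 hold at least 1 miRNA gene of the RefSeq table within their bounds on the same strand, and 2 of them passed as higher and 7 as lower in IP, with a median of -0.71, where 23.4% of all tested entries were higher and 20.5% lower. Of the 6 members on the list of miRNA hosts, which holds both miR-124 hosts and 4 of these 15, 3 were higher and 2 lower, with a median of 0.92. After scaling to nuclear FPKM 0 were higher and 2 lower, where 14% of all entries were higher and 39% lower. miR-9, a brain miRNA that regulates neural progenitors, is made from 3 genes, each inside a different member, with the same mature sequence (RefSeq, GRCm38.p6, seed in capitals).
miR-9-5p (Mir9-1, Mir9-2 and Mir9-3): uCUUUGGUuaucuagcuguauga
Gm3764, at chr3:88206813-88229959, holds Mir9-1 and had 5.88, 3.79, 3.09 and 8.30 FPKM in IP HFD and 9.14, 6.66 and 9.12 in IP NCD libraries. Input libraries had 34.3, 39.1, 27.5 and 24.3 (HFD) and 32.1, 38.1 and 26.9 FPKM (NCD), with every IP library lower (-2.13 ± 0.21, adjusted p = 9.7e-07). Mir9-3hg, at chr7:79500026-79534403, had 4.33, 8.77, 9.13 and 11.6 FPKM in IP HFD and 3.23, 13.5 and 1.53 in IP NCD libraries. Input libraries had 1.65, 1.81, 1.99 and 2.15 (HFD) and 2.02, 1.84 and 1.78 FPKM (NCD). It was higher in IP, although 1 IP NCD library lay below the input libraries (1.27 ± 0.34, adjusted p = 0.0072), and the call ended after scaling to nuclear FPKM (adjusted p = 0.051). C130071C03Rik, at chr13:83721381-83884194, holds Mir9-2 and varied widely between IP libraries, with 10.1, 24.5, 2.31 and 24.9 FPKM in IP HFD and 24.7, 5.45 and 69.0 in IP NCD libraries. Input libraries had 6.84, 8.30, 8.82 and 6.06 (HFD) and 7.38, 8.29 and 7.79 FPKM (NCD) (0.96 ± 0.50, adjusted p = 0.14). Without the IP HFD library of index 2 or the IP NCD library of index 1 its adjusted p became 0.026 and 0.018.

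The members Mir124a-1hg and Mir124-2hg host the neuronal miRNA miR-124. Mir124a-1hg was lower in IP, with 29.8, 3.91, 2.76 and 10.6 FPKM in IP HFD and 11.4, 8.42 and 2.23 in IP NCD libraries. Input libraries had 43.6, 27.9, 25.8 and 24.2 (HFD) and 31.1, 34.7 and 24.8 FPKM (NCD) (-1.93 ± 0.42, adjusted p = 0.0017). The IP HFD library of index 0, at 29.8 FPKM, lay among the input libraries and the other IP libraries lay below all of them. Mir124-2hg was higher, with 114, 41.6, 61.7 and 71.1 FPKM in IP HFD and 52.5, 95.2 and 30.4 in IP NCD libraries. Input libraries had 37.4, 22.9, 28.1 and 45.0 (HFD) and 33.6, 32.3 and 29.8 FPKM (NCD), with groups that overlapped (0.89 ± 0.26, adjusted p = 0.011). That call ended after quantile normalization (0.27, adjusted p = 0.39), after scaling to nuclear FPKM (0.34, adjusted p = 0.29) and without the libraries of index 0 (adjusted p = 0.050015). Mir670hg, which holds Mir670 and Mir129-2, had 37.1, 12.5, 31.5 and 8.28 FPKM in IP HFD and 14.2, 18.6 and 25.6 in IP NCD libraries. Input libraries had 2.21, 1.93, 21.8 and 1.98 (HFD) and 2.62, 13.4 and 8.01 FPKM (NCD) (1.67 ± 0.50, adjusted p = 0.013). The input HFD library of index 2 (21.8 FPKM) and the input NCD libraries of index 1 (13.4) and 2 (8.01) lay above the other input libraries (1.93 to 2.62 FPKM). The call ended with array weights (adjusted p = 0.25), after scaling to nuclear FPKM (adjusted p = 0.060) and without the libraries of index 0 (adjusted p = 0.11). Other members with miRNA genes, chosen after their values were seen, were lower in IP: C78859, which holds Mir138-2 (-1.84 ± 0.20, adjusted p = 3.1e-06), and 6720427I07Rik, which holds Mirlet7a-1, Mirlet7d and Mirlet7f-1 (-1.49 ± 0.18, adjusted p = 7.0e-06).

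Imprinted genes are expressed from 1 parental copy only. Both members of the imprinted list lie in the Dlk1-Dio3 region of chromosome 12, and both were lower in IP. Over all tested entries 20.5% were lower, and 2 members are too few to set against this share. Mirg, which hosts 14 miRNA genes of the RefSeq table, had 2.29, 0.906, 1.29 and 1.66 FPKM in IP HFD and 9.61, 3.67 and 0.783 in IP NCD libraries. Input libraries had 8.34, 8.79, 5.20 and 7.92 (HFD) and 3.96, 10.4 and 5.29 FPKM (NCD). The IP NCD library of index 0 reached the input range and all IP HFD libraries lay below it (-1.22 ± 0.35, adjusted p = 0.011). One of its miRNAs is shown with its seed in capitals (RefSeq, GRCm38.p6).
miR-410-3p (Mir410, chromosome 12): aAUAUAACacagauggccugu
B830012L14Rik had 11.99, 1.86, 0.760 and 1.83 FPKM in IP HFD and 2.56, 2.64 and 1.404 in IP NCD libraries. Input libraries had 6.52, 7.43, 5.82 and 8.19 (HFD) and 3.36, 7.48 and 4.17 FPKM (NCD) (-0.99 ± 0.38, adjusted p = 0.045). Its call was lost without any 1 of 12 of the 14 libraries (adjusted p between 0.0521 and 0.121) and without the filter on low values (adjusted p = 0.055).

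On chromosome 7, 5 members lie between Ube3a and Ndn, in the region that is deleted in Prader-Willi and Angelman syndromes in humans and holds imprinted genes. This set was put together after values had been seen. All 5 passed, 4 lower in IP and 1 higher, and after scaling to nuclear FPKM 4 were lower and 0 higher. Over all tested entries 20.5% were lower and 23.4% higher, and 39% and 14% after that scaling. With 5 members put together in this way, the counts are not a result about the region. A230057D06Rik, which spans 7 miRNA genes of the Mir344 family, had 4.87, 3.42, 3.77 and 2.49 FPKM in IP HFD and 1.07, 2.48 and 0.416 in IP NCD libraries. Input libraries had 14.7, 17.03, 12.5 and 13.4 (HFD) and 10.2, 17.96 and 11.98 FPKM (NCD), every IP library lower (-2.22 ± 0.24, adjusted p = 3.3e-06). Gm44644 (-1.79 ± 0.45), A230006K03Rik (-1.73 ± 0.26) and Gm9801 (-1.21 ± 0.29) were lower as well. B230209E15Rik, between them at chr7:61529871-61615327 on the same strand, was higher, with 66.4, 27.8, 49.6 and 48.2 FPKM in IP HFD and 23.6, 35.0 and 43.5 in IP NCD libraries. Input libraries had 19.2, 20.7, 17.9 and 18.4 (HFD) and 23.8, 18.5 and 19.1 FPKM (NCD). Its IP NCD library of index 0 lay within the input range and its other 6 IP libraries lay above it (0.95 ± 0.19, adjusted p = 8.8e-04).

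Ftx and Jpx belong to the X inactivation centre, where they are known to promote expression of Xist in female cells, and these mice were male. Ftx had 1.504, 2.15, 0.694 and 0.923 FPKM in IP HFD and 2.51, 1.19 and 4.36 in IP NCD libraries. Input libraries had 10.4, 8.78, 6.63 and 6.01 (HFD) and 7.32, 10.5 and 5.72 FPKM (NCD), without overlap (-1.64 ± 0.27, adjusted p = 1.5e-04). Jpx had 2.21, 13.2, 9.74 and 4.22 FPKM in IP HFD and 5.05, 21.1 and 4.14 in IP NCD libraries. Input libraries had 9.38, 10.6, 9.93 and 9.97 (HFD) and 8.20, 14.7 and 14.9 FPKM (NCD). It did not pass (-0.60 ± 0.37, adjusted p = 0.21), except as lower without the IP NCD library of index 1 (-0.93, adjusted p = 0.032) and after scaling to nuclear FPKM (-1.09, adjusted p = 0.028).

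Hosts of small nucleolar RNAs, whose introns give the guide RNAs that modify ribosomal RNA, were represented by 4 members, 2 of them higher in IP and 0 lower, and after scaling to nuclear FPKM 2 higher and 1 lower. With 23.4% of all tested entries higher and 20.5% lower, 4 members are too few to set against this share. Snhg12 had 233, 94.1, 72.6 and 79.2 FPKM in IP HFD and 392, 68.3 and 216 in IP NCD libraries. Input libraries had 17.01, 25.6, 17.4 and 15.0 (HFD) and 16.4, 15.2 and 15.7 FPKM (NCD). Every IP library lay far above every input library (2.95 ± 0.34, adjusted p = 5.0e-06). Snhg18 was also higher, with 7.40, 7.30, 1.34 and 4.02 FPKM in IP HFD and 8.39, 6.45 and 2.51 in IP NCD libraries. Input libraries had 0.498, 0.900, 1.15 and 1.08 (HFD) and 1.35, 0.779 and 1.74 FPKM (NCD) (1.49 ± 0.33, adjusted p = 0.0018). Snhg20 had 7.48, 5.86, 0 and 3.33 FPKM in IP HFD and 1.87, 2.78 and 32.4 in IP NCD libraries. Input libraries had 6.60, 3.84, 3.14 and 4.15 (HFD) and 1.19, 4.73 and 2.02 FPKM (NCD). A single IP NCD library, at 32.4 FPKM, stood far above the rest (0.34 ± 0.57, adjusted p = 0.66), and without it the difference was -0.22. Snhg10 had 1.18, 1.60, 0.895 and 7.06 FPKM in IP HFD and 0, 2.24 and 5.51 in IP NCD libraries. Input libraries had 1.78, 3.92, 3.92 and 5.12 (HFD) and 3.20, 3.60 and 5.41 FPKM (NCD) (-0.71 ± 0.42, adjusted p = 0.19). It passed as lower without the IP NCD library of index 2 (-1.02, adjusted p = 0.0499) and after scaling to nuclear FPKM (-1.08, adjusted p = 0.036).

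Gm10076, on chromosome 14, is annotated as a lincRNA but is a near-identical copy of Rpl41, the gene of the smallest ribosomal protein, on chromosome 10. It matched Rpl41 over 99.7% of its 384 nt at 99.5% identity, and bases 42 to 119 of its transcript equal the whole coding part of Rpl41, at 78 of 78 bases. The stretch is shown as the reason why this member cannot be read apart from Rpl41 (chr14:105681869-105681946, plus strand, GRCm38, with the start and stop codons at its ends).
Gm10076: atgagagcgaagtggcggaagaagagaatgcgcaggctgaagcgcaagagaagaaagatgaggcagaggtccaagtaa
It had 289, 167, 176 and 139.5 FPKM in IP HFD and 291, 148 and 223 in IP NCD libraries. Input libraries had 17.95, 12.1, 15.3 and 12.9 (HFD) and 13.8, 12.02 and 11.3 FPKM (NCD). All IP libraries lay far above all input libraries (3.802 ± 0.19, adjusted p = 8.9e-10), and Rpl41 itself differed by 3.78. By the same measure, at least 95% identity over at least 50% of the transcript, 13 members had a copy elsewhere, and Gm26526 and Gm26825 matched Ube2h and Hspa8 over their whole length.

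Of the 9 members on the neural and regulatory list, 2 passed as higher in IP and 3 as lower, with a median of -0.49. Over all tested entries 23.4% were higher and 20.5% lower. After scaling to nuclear FPKM 2 of the 9 were higher and 6 lower, where 14% of all entries were higher and 39% lower. Rmst, which binds the transcription factor SOX2 and takes part in neurogenesis, had 9.48, 7.41, 21.5 and 2.64 FPKM in IP HFD and 3.75, 8.91 and 5.58 in IP NCD libraries. Input libraries had 47.1, 24.6, 23.8 and 30.5 (HFD) and 22.2, 68.6 and 27.0 FPKM (NCD). All IP libraries lay below all input libraries (-2.08 ± 0.37, adjusted p = 3.1e-04). Pantr1, next to the neural transcription factor gene Pou3f3, had 15.8, 72.4, 31.7 and 23.4 FPKM in IP HFD and 97.7, 33.5 and 43.8 in IP NCD libraries. Input libraries had 9.40, 6.86, 7.83 and 9.71 (HFD) and 8.63, 4.54 and 6.73 FPKM (NCD). Every IP library lay above every input library (2.30 ± 0.31, adjusted p = 2.7e-05), while Pou3f3 itself, at a mean of 6.83 FPKM, differed by -0.14 ± 0.24 (adjusted p = 0.66). Bc1, a short RNA of rodent dendrites that represses translation, had 5.98, 0, 0 and 1.55 FPKM in IP HFD and 3.29, 1.99 and 2.61 in IP NCD libraries. Input libraries had 26.1, 3.47, 6.20 and 16.1 (HFD) and 13.7, 0 and 5.27 FPKM (NCD). Its input libraries ran from 0 to 26.1 FPKM and overlapped with IP (-1.38 ± 0.61, adjusted p = 0.082), and it passed as lower without the IP HFD library of index 0 (adjusted p = 0.031), without the input NCD library of index 1 (adjusted p = 0.012), after scaling to nuclear FPKM (adjusted p = 0.024) or with the index as a block (adjusted p = 0.014). Pvt1, the non-coding neighbour of Myc, had 1.03, 166, 1.03 and 275 FPKM in IP HFD and 0.664, 6.84 and 19.7 in IP NCD libraries. Input libraries had 18.5, 3.92, 2.71 and 3.81 (HFD) and 149, 3.42 and 12.3 FPKM (NCD). Single libraries in 3 of the 4 groups were more than 10-fold above others of their group, and no difference passed (0.01 ± 1.17, adjusted p = 1.0). A330008L17Rik, which starts next to the cadherin gene Cdh8, had 5.59, 1.75, 2.53 and 7.41 FPKM in IP HFD and 0.116, 3.26 and 0.423 in IP NCD libraries. Input libraries had 3.78, 2.83, 3.67 and 3.02 (HFD) and 2.70, 3.94 and 2.99 FPKM (NCD). It did not pass (-0.49 ± 0.34, adjusted p = 0.26), except as lower without the IP NCD library of index 1 (-0.78, adjusted p = 0.039) and after scaling to nuclear FPKM (-0.86, adjusted p = 0.036).

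The start of 76 members lies within 2 kb of the start of a protein-coding gene on the other strand, an arrangement called divergent. Of these, 27 passed as higher in IP and 2 as lower, with a median of 0.56, where 23.4% of all tested entries passed as higher and 20.5% as lower. Of the 195 other members with a position, 37 were higher and 54 lower, with a median of -0.05. With at least 1 FPKM in both fractions, 17 of 50 divergent members were higher and 1 lower, and 29 of 141 others were higher and 32 lower. After quantile normalization 40 divergent members were higher and 0 lower, against 55 and 52 of the others. After scaling to nuclear FPKM it was 17 and 7, against 23 and 77. Of all entries 22.7% were higher and 27.5% lower after quantile normalization, and 14% and 39% after scaling to nuclear FPKM. The median of the divergent members stayed above that of the others after quantile normalization (0.84 and 0.13) and after scaling to nuclear FPKM (0.23 and -0.42), and without the libraries of index 0 (0.68 and -0.07). The difference between the classes was not tested.

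The coding partners were described in the same way. In 71 of 77 pairs the partner was tested, and the partners had a median difference of 0.07, with 23 higher and 12 lower. In the 26 pairs with a member that was higher in IP, the partner was higher in 6, lower in 4 and past the threshold in neither direction in 16. Across the 71 pairs Spearman's rho between the 2 differences was 0.04, where pairs within the same libraries are not independent. Lhx1os, beside Lhx1, the gene of a transcription factor of the suprachiasmatic nucleus, had 30.3, 16.8, 27.4 and 9.92 FPKM in IP HFD and 29.3, 10.9 and 8.83 in IP NCD libraries. Input libraries had 2.85, 6.99, 3.87 and 5.79 (HFD) and 4.03, 3.74 and 4.403 FPKM (NCD). Each of the 7 IP libraries exceeded all input libraries (1.72 ± 0.31, adjusted p = 3.3e-04), and Lhx1 differed by 0.52 ± 0.43 (adjusted p = 0.35). A730063M14Rik starts beside Tspan31, a membrane protein gene, and within 5 kb after the end of Cdk4, and had 12.9, 34.9, 22.2 and 15.6 FPKM in IP HFD and 5.89, 13.4 and 20.04 in IP NCD libraries. Input libraries had 0.575, 0.595, 0.190 and 1.18 (HFD) and 0.310, 0.240 and 0.212 FPKM (NCD). Its lowest IP library lay well above its highest input library (3.53 ± 0.30, adjusted p = 2.0e-07), and Tspan31 differed by 1.07 ± 0.28 (adjusted p = 0.0058). 5033430I15Rik, beside the ataxin gene Atxn1, had 3.24, 9.74, 8.52 and 13.1 FPKM in IP HFD and 27.9, 8.66 and 9.91 in IP NCD libraries. Input libraries had 1.98, 0.578, 1.72 and 0.942 (HFD) and 0.443, 0.459 and 1.86 FPKM (NCD) (2.49 ± 0.35, adjusted p = 3.4e-05), and Atxn1 differed by 0.26 ± 0.15 (adjusted p = 0.18). Gm15631, beside the adhesion gene Cntn4, had 18.7, 15.1, 24.2 and 13.1 FPKM in IP HFD and 13.7, 31.6 and 17.4 in IP NCD libraries. Input libraries had 4.94, 4.09, 4.20 and 4.303 (HFD) and 3.29, 4.75 and 4.12 FPKM (NCD) (1.91 ± 0.22, adjusted p = 4.7e-06), and Cntn4 differed by 0.45 ± 0.26 (adjusted p = 0.18). Gm15631 and the next 3 pairs were chosen after their values were seen. In these 3 the genes moved apart: Fam120aos was higher (1.13 ± 0.33) and Fam120a lower (-0.89 ± 0.17), 2810414N06Rik higher (1.05 ± 0.31) and Edem3 lower (-0.98 ± 0.19), and Gm26894 higher (1.28 ± 0.44) and Shh lower (-0.88 ± 0.28).

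Promoters of divergent members were rich in CG. RefSeq promoters (GRCm38.p6, 250 bases before to 50 after the start) were found for 134 members. The promoter of the member's name nearest to its GENCODE start was taken, at any distance. Some lay far away, such as 114797 bases for AC173344.1 and 22562 bases for the divergent Gm12976, so not every promoter is that of the start used here. CG, which reads the same on both strands, occurred 25 times in the median promoter of 41 divergent members and 8 times in that of 93 others, and 7 times over all 32851 promoters of the table. At least 10 CG were present in 87.8%, 39.8% and 43.5% of them. The promoters of a divergent member that was higher in IP and of A230057D06Rik, which was lower and is not divergent, are shown with CG in capitals, 33 and 0 of them. They are examples and lie further apart than the medians. A730063M14Rik, also divergent and higher in IP, had 10 CG. The start of the A230057D06Rik promoter lies 1116 bases from the GENCODE start of that member.
Lhx1os, chr11:84525410-84525709, plus strand: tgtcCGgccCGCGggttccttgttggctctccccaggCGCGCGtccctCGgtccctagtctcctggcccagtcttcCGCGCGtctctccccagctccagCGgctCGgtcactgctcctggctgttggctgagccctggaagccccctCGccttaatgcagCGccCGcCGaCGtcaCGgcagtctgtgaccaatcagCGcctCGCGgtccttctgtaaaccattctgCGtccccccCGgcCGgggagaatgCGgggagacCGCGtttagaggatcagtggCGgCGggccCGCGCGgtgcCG
A230057D06Rik, chr7:61927525-61927824, minus strand: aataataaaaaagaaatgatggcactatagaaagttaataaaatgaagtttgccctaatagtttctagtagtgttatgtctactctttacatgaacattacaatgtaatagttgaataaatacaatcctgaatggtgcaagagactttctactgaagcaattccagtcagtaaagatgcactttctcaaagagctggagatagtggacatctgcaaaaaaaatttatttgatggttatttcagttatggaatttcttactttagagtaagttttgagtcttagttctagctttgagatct

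**Figure D3:**
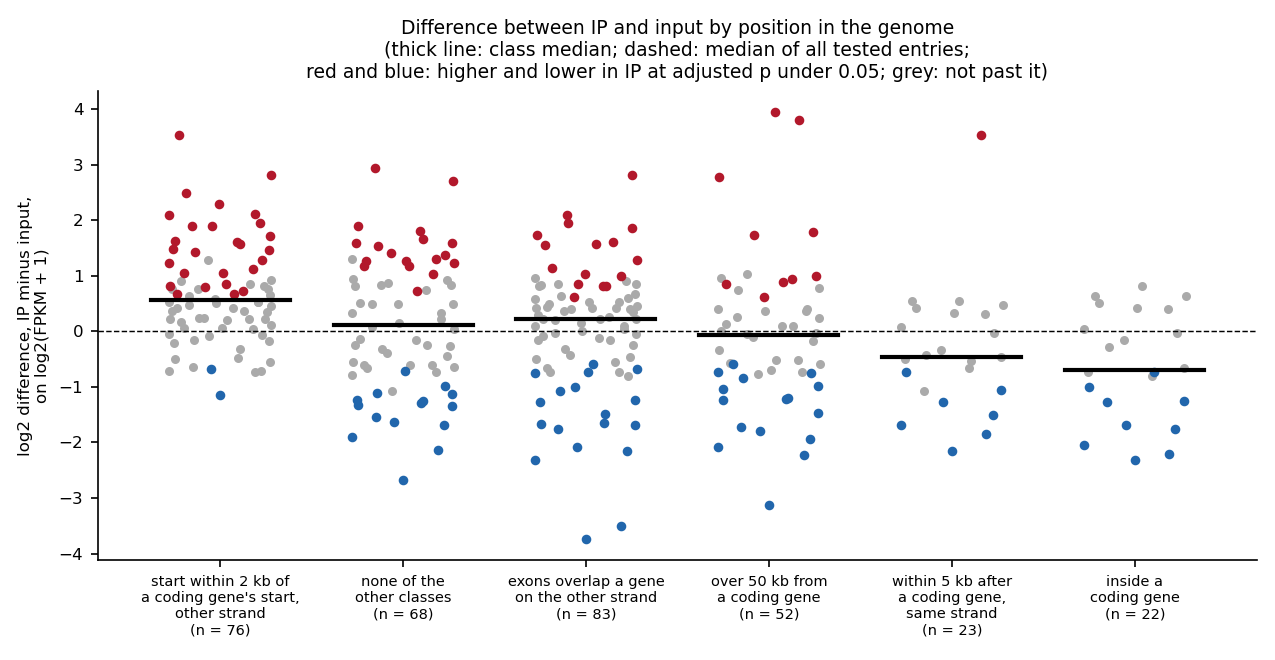
Log2 difference between IP and input of each member (points) by its position relative to other genes; a member can stand in more than 1 class. The class median (thick line) is 0.56 for the 76 members that start next to a coding gene on the other strand, and -0.46 and -0.69 for the 23 members just downstream of a coding gene and the 22 inside one, beside a median of 0.00 over all tested entries (dashed).

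Members inside a coding gene or just behind one were next. Of 22 that lie within the bounds of a coding gene, 0 were higher and 9 lower in IP (median -0.69). Of all tested entries 23.4% were higher and 20.5% lower. Without the libraries of index 0, 2 of the 22 were higher and 10 lower, where 25.3% of all entries were higher and 21.7% lower. With at least 1 FPKM in both fractions, 0 of 14 were higher and 4 lower. Gm26953, which was lowest of all members, does not lie within a coding gene, but its exons run opposite Miat, a nuclear RNA. It had 0.555, near 0, near 0 and 1.03 FPKM in IP HFD and near 0, near 0 and 2.29 in IP NCD libraries. Input libraries had 22.6, 10.9, 28.5 and 12.6 (HFD) and 9.42, 32.4 and 19.3 FPKM (NCD), so that no IP library reached the lowest input library (-3.74 ± 0.37, adjusted p = 1.1e-06). Gm17275, inside and opposite the histone gene H3f3a, had near 0, 1.73, 0.644 and 0.579 FPKM in IP HFD and near 0, 0.0496 and near 0 in IP NCD libraries. Input libraries had 5.91, 4.76, 5.38 and 5.75 (HFD) and 4.67, 5.71 and 5.97 FPKM (NCD) (-2.32 ± 0.24, adjusted p = 1.5e-06). Gm45250 had 0, 3.38, 0.192 and 0 FPKM in IP HFD and 0.311, 0.692 and 0.135 in IP NCD libraries. Input libraries had 7.06, 5.83, 4.59 and 4.56 (HFD) and 6.29, 5.47 and 5.63 FPKM (NCD) (-2.20 ± 0.32, adjusted p = 5.6e-05). Gm26823, inside the gene of the 3' end processing factor Wdr33, had 0.992, 4.69, 1.80 and 0.0999 FPKM in IP HFD and 4.84, 2.31 and 0 in IP NCD libraries. Input libraries had 9.62, 13.97, 8.36 and 6.80 (HFD) and 9.66, 11.2 and 8.60 FPKM (NCD) (-2.05 ± 0.41, adjusted p = 8.4e-04). Among 23 members that start within 5 kb after the end of a coding gene on the same strand, 1 was higher (A730063M14Rik) and 7 lower (median -0.46). Without the libraries of index 0, 3 were higher and 10 lower. Both counts are to be read against the same shares as for the members inside a coding gene. With at least 1 FPKM in both fractions, 0 of 18 were higher and 4 lower. AI504432, 1434 bases from the potassium channel gene Kcna3, had 5.01, 6.61, 3.27 and 3.24 FPKM in IP HFD and 7.94, 3.42 and 4.65 in IP NCD libraries. Input libraries had 13.7, 16.3, 15.2 and 15.2 (HFD) and 15.4, 15.7 and 15.4 FPKM (NCD), and its difference (-1.51 ± 0.21) stood beside -1.53 for Kcna3. Gm20300, 1507 bases from Hint3, had 16.3, 25.6, 35.6 and 30.5 FPKM in IP HFD and 21.8, 27.6 and 21.6 in IP NCD libraries. Input libraries had 49.1, 48.0, 52.5 and 51.2 (HFD) and 58.4, 52.2 and 54.8 FPKM (NCD) (-1.06 ± 0.16), beside -0.22 for Hint3. These last members were chosen after their values were seen. Over the 17 downstream members with a tested nearest coding gene, Spearman's rho between both differences was 0.78, as a description. Reads of an mRNA with an extended 3' end would fall in such an entry, and their part was not tested. Of 83 members with exons opposite another gene, 16 were higher and 18 lower, and of 52 that lie over 50 kb from a coding gene, 10 were higher and 16 lower. Over all tested entries 23.4% were higher and 20.5% lower, so these counts are not a result about either class.

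Other members with large differences have no known function. 2900040C04Rik, on chromosome 14, was highest in IP relative to input, with 128, 42.2, 331 and 181 FPKM in IP HFD and 4.301, 62.0 and 49.0 in IP NCD libraries. Input libraries had 5.66, 0.372, 5.16 and 7.49 (HFD) and 3.58, 1.33 and 1.74 FPKM (NCD). Only the IP NCD library of index 0, at 4.301 FPKM, fell within the range of the input HFD libraries (3.95 ± 0.59, adjusted p = 7.0e-05). Gm29595 had 19.4, 36.1, 33.1 and 53.3 FPKM in IP HFD and 29.1, 25.3 and 24.3 in IP NCD libraries. Input libraries had 2.74, 1.45, 2.76 and 0.878 (HFD) and 1.53, 1.302 and 0.849 FPKM (NCD) (3.61 ± 0.25, adjusted p = 2.4e-08). Gm17102 had 28.5, 8.83, 7.71 and 13.3 FPKM in IP HFD and 18.9, 5.28 and 9.23 in IP NCD libraries. Input libraries had 2.66, 0.342, near 0 and 0.654 (HFD) and 0.648, 0.787 and 0.976 FPKM (NCD) (2.81 ± 0.37, adjusted p = 2.0e-05). In both, every IP library lay above every input library. Gm31946 had 6.01, 16.5, 27.8 and 46.2 FPKM in IP HFD and 4.35, 22.2 and 18.8 in IP NCD libraries. Input libraries had 0, 0, 1.96 and 0.566 (HFD) and 2.99, 2.56 and 3.31 FPKM (NCD) (2.78 ± 0.44, adjusted p = 1.3e-04). AC102496.1 had 36.4, 32.3, 60.5 and 50.7 FPKM in IP HFD and 29.0, 26.0 and 32.1 in IP NCD libraries. Input libraries had 10.2, 6.38, 8.07 and 7.49 (HFD) and 6.41, 6.20 and 5.43 FPKM (NCD) (2.21 ± 0.17, adjusted p = 9.9e-08). On the other side, 9530059O14Rik had 1.61, 0.101, 0.955 and 2.08 FPKM in IP HFD and 0.310, 1.36 and 0.0683 in IP NCD libraries. Input libraries had 14.5, 15.9, 13.2 and 12.6 (HFD) and 13.2, 17.1 and 13.0004 FPKM (NCD), and all its IP libraries lay far below all input libraries (-3.12 ± 0.27, adjusted p = 3.0e-07). 2610037D02Rik had 0, 0.640, 0.248 and 0.0194 FPKM in IP HFD and 0.376, 0.120 and 2.83 in IP NCD libraries. Input libraries had 7.68, 9.04, 6.98 and 8.20 (HFD) and 7.82, 10.96 and 8.27 FPKM (NCD), likewise without overlap (-2.68 ± 0.28, adjusted p = 2.3e-06).

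Transcript length went along with the difference. By the longest transcript, the median difference of the members was 0.45 up to 1000 nt (52 members), 0.35 up to 2000 nt (78), 0.09 up to 4000 nt (106), -0.53 up to 8000 nt (29) and -1.22 above that (6 members). Over all tested entries it was 1.17, 0.52, 0.05, -0.32 and -0.62. Without the longest bin, which holds 6 members, the order was the same. Spearman's rho with length was -0.27 over 271 members and -0.41 over 12478 entries, and with GC content it was 0.31 and 0.25. With the number of exons it was -0.01 over the members and -0.30 over all entries. Divergent members were shorter (median 1645 nt) than the others (2223 nt), and their median was above that of the others in each bin up to 8000 nt, for example 0.64 and 0.09 between 1000 and 2000 nt. Of 35 members with 1 exon, 3 were higher and 11 lower, and of 236 with more, 61 were higher and 45 lower, where 23.4% of all tested entries were higher and 20.5% lower. With several exons 91 were higher and 41 lower after quantile normalization, and 39 higher and 68 lower after scaling to nuclear FPKM. With 1 exon it was 4 and 11, and 1 and 16. Of all entries 22.7% were higher and 27.5% lower after quantile normalization, and 14% and 39% after scaling to nuclear FPKM.

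**Figure D4:**
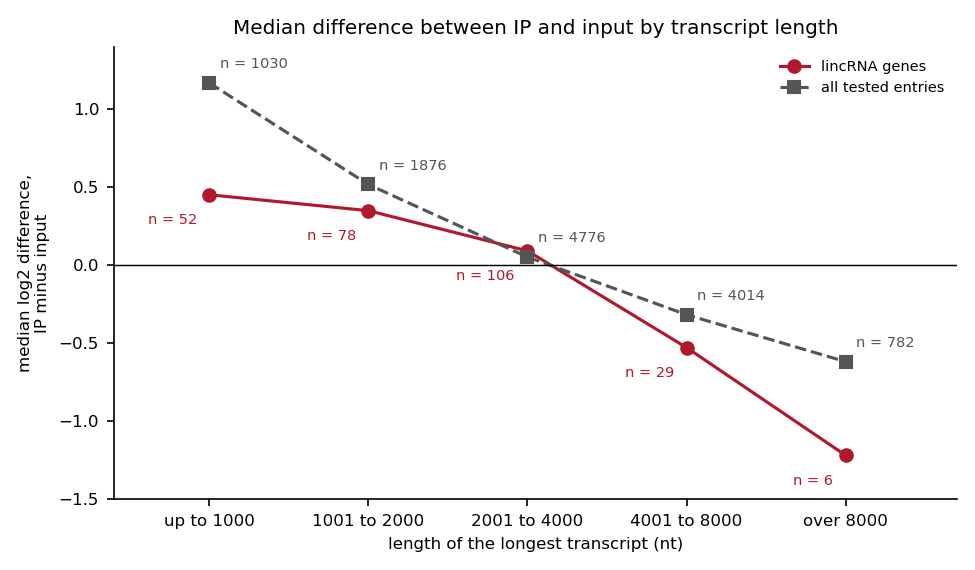
Median log2 difference between IP and input by length of the longest transcript, for the lincRNA genes (circles) and for all tested entries (squares), with the number of genes beside each point. Both fall with length, the lincRNA genes to -1.22 over 8000 nt and all entries to -0.62.

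The diets were compared within each fraction, with differences as HFD minus NCD. In IP, 0 of the 272 members passed and 0% of all tested entries did, and 19 members (6.99%) had an unadjusted p under 0.05, against 5.72% of all tested entries. The diets' libraries did not overlap for 16 members (5.88%), 11 higher and 5 lower in HFD, where 6.34% of all entries did not overlap (3.21% higher and 3.13% lower). The members with the smallest p and no overlap are therefore given as values that did not pass. Gm26917 had 0.379, 0.861, 0.125 and 0.486 FPKM in IP HFD against 15.9, 3.88 and 9.41 in IP NCD libraries, and at most 0.325 FPKM in any input library (-2.72 ± 0.58, adjusted p = 0.81). It lies 12 bases from an entry annotated as ribosomal RNA on chromosome 17. With all 14 libraries in 1 fit, which takes the spread from input libraries too, Gm26917 alone among the members passed (adjusted p = 0.0060), as did 0.601% of all tested entries. B830042I05Rik (-1.75), Dubr (-1.12), Gm26767 (-1.05) and Gm47117 (-1.18) had lower values in HFD as well. Dubr, known from muscle cells in mice, had 7.45, 3.60, 9.86 and 6.30 FPKM in IP HFD against 18.02, 10.1 and 19.1 in IP NCD libraries, and 5.40 to 7.15 FPKM in input.

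D330050G23Rik had 12.6, 1.82, 3.35 and 6.70 FPKM in IP HFD against 0, 0.442 and 1.42 in IP NCD libraries (1.98 ± 0.66, adjusted p = 0.81). 2810414N06Rik had 10.5, 3.19, 6.97 and 4.59 FPKM in IP HFD against 0, 1.67 and 2.65 in IP NCD libraries (1.67). In both, the IP NCD library of index 0 was listed at 0. Gm10684 (1.46), 1110006O24Rik (1.37) and Gm16701 (1.25) also had higher values in HFD, and the adjusted p of each of these was 0.81. Gm12371, beside Lingo2, had 42.7, 35.5, 28.9 and 8.67 FPKM in IP HFD against 8.501, 6.57 and 11.99 in IP NCD libraries, where 1 HFD library lay inside the NCD range.

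In input, 0 members and 0% of all entries passed, 14 members (5.15%) had an unadjusted p under 0.05 against 5.72% of all entries, and the diets did not overlap for 15 members (5.51%, 5 higher and 10 lower in HFD) against 6.8% of all entries (3.04% higher and 3.76% lower). Gm26675 had 1.25, 2.68, 2.52 and 2.69 FPKM in input HFD against 0.438, 0.943 and 0.4997 in input NCD libraries (1.00 ± 0.21, adjusted p = 0.84). Gm26883, inside and opposite the gene of the transcription factor Tshz2, had 8.29, 10.3, 13.1 and 8.60 FPKM in input HFD against 19.2, 15.7 and 15.7 in input NCD libraries (-0.71 ± 0.15, adjusted p = 0.84). Gm26733 (0.76), 2210406O10Rik (0.59), Gm26981 (0.46) and D730003I15Rik (0.35) had higher values in HFD. Gm31946 (-1.43), Gm26735 (-0.53), AL805899.1 (-0.42) and AC138768.1 (-0.34) had lower values. Each of these 10 had an adjusted p between 0.84 and 0.89.

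**Figure D5:**
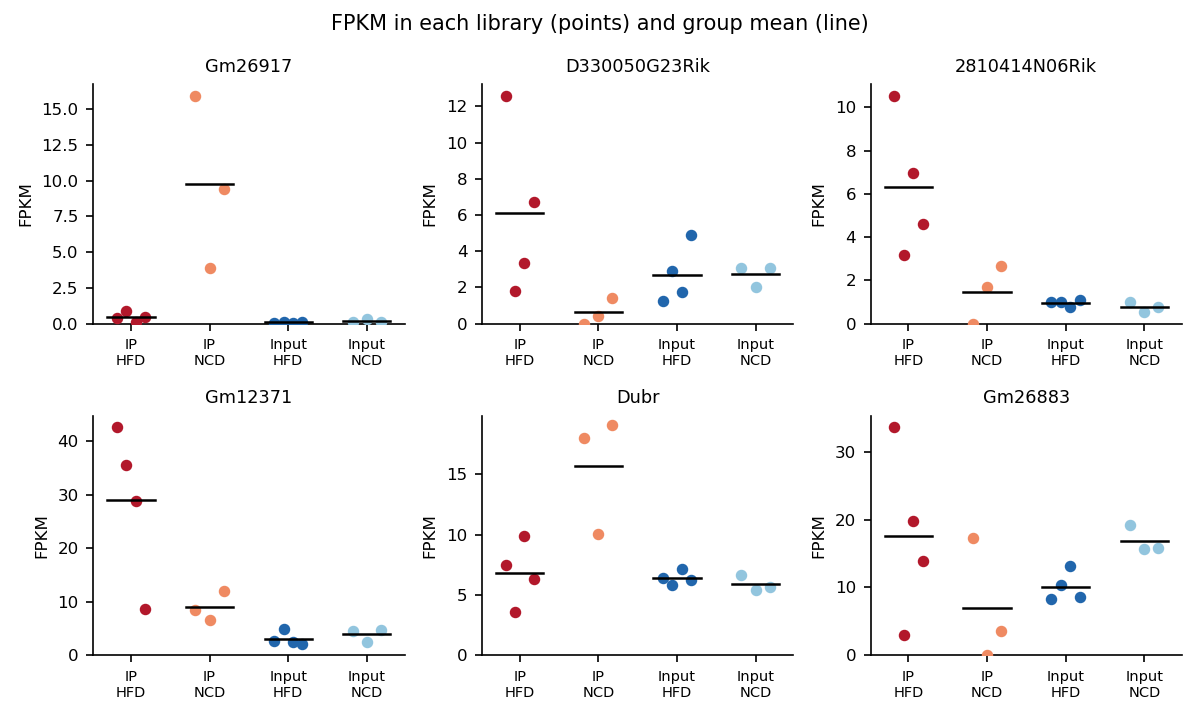
FPKM of 6 members named in the diet comparisons, in each of the 14 libraries (points; lines are group means), with IP HFD, IP NCD, input HFD and input NCD libraries from left to right. Gm26917 stayed at 0.861 FPKM or less in IP HFD and reached 15.9 FPKM in IP NCD, and the HFD and NCD libraries of 1 fraction do not overlap except in Gm12371; none of these differences passed the threshold.

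The diet difference in IP was compared with that in input as the difference of the 2 (IP minus input). No member passed (0 of 272, with 21 or 7.72% at an unadjusted p under 0.05, against 6.77% of all entries), and 0.00801% of all tested entries did. Gm26917 had the smallest p (-2.61 ± 0.51, adjusted p = 0.23), and it passed without the IP NCD library of index 1 (-3.09, adjusted p = 0.0077), as did Gm17382 (-3.51, adjusted p = 0.0075) and 1700047M11Rik (2.31, adjusted p = 0.026), 3 members where 1.03% of all tested entries passed. Gm17382 had 0, 0.384, 0 and 0.0811 FPKM in IP HFD and 8.65, 0 and 16.7 in IP NCD libraries, so its difference rests on 2 libraries. B830042I05Rik (-1.47), Dubr (-1.22) and Gm9801 (-1.30) were further values below 0, and D330050G23Rik (2.08), 1110006O24Rik (1.33), 4930544I03Rik (1.70), Gm12371 (1.69) and Gm17484 (1.17) values above 0. The authors' deposited table compares IP to input ratios between the diets and gives p-values that are not adjusted: 4 of the 272 members (1.47%) were under 0.05 there, against 2.88% of all entries. In the authors' deposited table A230057D06Rik had a log2 ratio of 1.46 (p = 0.019), Gm17484 of 1.77 (p = 0.040), AC138768.1 of 1.19 (p = 0.041) and 1700112J16Rik of -1.27 (p = 0.019).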

How the data were processed

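RNA of 14 libraries was measured, 7 from IP of phosphorylated S6 and 7 from input. Per the submitters' processing notes, the tools were Cuffdiff, Cufflinks 2.2.1, HISAT2 2.1.0 and StringTie 1.3.4d, with GRCm38.p6 as the build. Per the labels' protocols, RNA was amplified before library preparation from poly(T) and random primers, so levels can carry amplification bias. The authors deposited 1 table with FPKM per gene and library, ratios of IP over input FPKM, and, for a comparison of these ratios between the diets, p-values without adjustment. Per the file headers its last value is a log2 fold change, treated here as a score because it takes extreme values where a ratio is near 0. How FPKM were scaled between libraries is not given in the sources used here. Each of the 96385 ratios is IP over input FPKM of 1 diet and index, within a relative tolerance of 0.001. FPKM carry no read counts, so depth is unknown and no counting interval is given.

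FPKM were tested as log2(FPKM + 1) with limma 3.58.1 (R 4.3.3) with an intensity trend, over 12484 entries with a mean of at least 1 FPKM, in 6 comparisons, with Benjamini-Hochberg adjustment. IP and input comparisons used 4 group means over 14 libraries, and diet comparisons the 7 libraries of a fraction. IP and input came from the same lysates but were fitted as independent. The p-values measure the spread between libraries of pools. On simulated data in which each group kept its own spread, the fits returned the direction of nearly all changed entries, but unchanged entries made up more than the nominal share of calls, most within NCD. The adjusted p-values carry this limit. A fold change on this scale understates changes of low genes.

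Genes were named by rule: the 10 most abundant members, up to 10 per direction with the largest difference among those that passed and did not overlap between IP and input in either diet, 5 per direction with the smallest p in each diet comparison (without overlap between the diets within a fraction), and the members of 5 lists (imprinted, miRNA host, snoRNA host, X inactivation, neural and regulatory). Others are said to be chosen after their values were seen. The members and lists were chosen with earlier results of these data known. Positions and transcripts are from GENCODE M21 (GRCm38), other sequences from RefSeq, and copies were found with blastn 2.17.0. Alternatives were another pseudocount, no filter, 3 other scalings, array weights, a replicate block, other sets of libraries in the fit and each library left out, and, chosen after seeing the data, all libraries of index 0 left out.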

Additional observations from a re-analysis of the deposited data

Results flagged for a closer look

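Among 67 named members, the groups of 4 libraries (IP HFD and input HFD) were searched for a single library far from the rest of its group, 134 groups in all. With independent, normally distributed values chance would mark about 1 in 20 groups, and 16 were marked, 6 of them in IP HFD. The genes share the same libraries, FPKM need not be so distributed, and some genes were named by their values. The rate is therefore only a rough guide, and no excess over chance is read from the count. In the IP HFD library of index 0, Snhg12 had 233 FPKM, the highest of its group, with 72.6 to 94.1 FPKM in the others. There, B830012L14Rik had 11.99 FPKM, the highest of its group, with 0.760 to 1.86 FPKM in the others. In the IP HFD library of index 1, Gm45250 had 3.38 FPKM, the highest of its group, with 0 to 0.192 FPKM in the others. There, Gm17484 had 4.35 FPKM, the highest of its group, with 2.37 to 2.68 FPKM in the others. In the IP HFD library of index 2, Gm26733 had 10.1 FPKM, the highest of its group, with 0.520 to 1.88 FPKM in the others. In the IP HFD library of index 3, Snhg10 had 7.06 FPKM, the highest of its group, with 0.895 to 1.60 FPKM in the others. In the input HFD library of index 0, C230004F18Rik had 735 FPKM, the highest of its group, with 457 to 475 FPKM in the others. There, 1700020I14Rik had 124 FPKM, the highest of its group, with 96.3 to 101 FPKM in the others. There, Gm28050 had 97.8 FPKM, the highest of its group, with 78.7 to 81.8 FPKM in the others. There, Gm26675 had 1.25 FPKM, the lowest of its group, with 2.52 to 2.69 FPKM in the others. There, D730003I15Rik had 8.75 FPKM, the highest of its group, with 4.35 to 4.58 FPKM in the others. There, Pvt1 had 18.5 FPKM, the highest of its group, with 2.71 to 3.92 FPKM in the others. In the input HFD library of index 1, 4930544I03Rik had 3.02 FPKM, the highest of its group, with 1.83 to 2.01 FPKM in the others. There, Gm12371 had 4.91 FPKM, the highest of its group, with 2.11 to 2.55 FPKM in the others. In the input HFD library of index 2, Mir670hg had 21.8 FPKM, the highest of its group, with 1.93 to 2.21 FPKM in the others. In the input HFD library of index 3, Gm47117 had 1.07 FPKM, the highest of its group, with 0.383 to 0.442 FPKM in the others.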

How the results depend on the processing

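The number of members that differed between IP and input stayed within 1.5 times of 121 under every alternative run, and between 100 and 134 with 1 library left out. Within HFD it ran from 77 to 119 and within NCD from 50 to 86 with 1 library left out, and a fit on the NCD libraries alone gave 46 where the fit with all 14 libraries gave 73. The diet comparison in IP gave 0 with each library left out and 1 with all 14 libraries in 1 fit, the comparison in input gave 0 with each library left out, and the difference of the diet effects gave 0 to 3, the 3 without the IP NCD library of index 1. With the replicate block, the index as a block, 113 members differed between IP and input, 91 within HFD, 67 within NCD and 0 in the difference of the diet effects. Of all tested entries 41.4%, 30.2%, 22.8% and 0.00801% did, in the same order. The deposited ratios match IP and input libraries by index, so the index is the authors' pairing, which the main fit left out and the block takes in. Deviations of IP and input libraries of the same index correlated at -0.00429 to 0.0581, and 6 of 7 IP libraries correlated best with the input of their own index. The block changed 1 call among the named members, Bc1 (-1.38, adjusted p = 0.014). With the index shared by the diets as a replicate block, 0 members differed between the diets in IP and 0 in input. HFD and NCD libraries of the same index correlated at -0.0251 to 0.035 in IP and at 0.0517 to 0.124 in input, where each of the 3 pairs correlated best with its own index, and nothing in the labels makes it a pairing. The difference of Gm26723 turned to -0.72 after quantile normalization and -0.14 after scaling to nuclear FPKM, that of 6330403K07Rik to -0.80 and -0.42, and that of Snhg20 to -0.079 after scaling to nuclear FPKM, and to between -0.22 and 0.67 without single libraries. Pvt1, at 0.01, turned to -0.22 with a pseudocount of 0.1, -0.076 after quantile normalization, -0.048 after median-ratio scaling and -0.42 after scaling to nuclear FPKM, and to between -0.61 and 0.73 without single libraries. The cause was not tested. Of the other alternative values of named members, 1430 kept direction and side of the threshold, 17 newly passed and 20 no longer passed. Depth is unknown, and members listed at 0 in single IP libraries limit the comparisons of scarce genes.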

Other observations

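The 129 lincRNA entries under 1 FPKM were tested with limma in a fit without the filter on low values. Of these, 30 differed between IP and input, 1 of them higher in IP, where 40.2% of all 14531 entries in that fit differed (20.1% higher). Within HFD 21 differed and within NCD 13, against 30.2% and 23.9% of all entries, and 0 differed between the diets in either fraction. Of the 14531 entries, 12484 had a mean of at least 1 FPKM, so these shares are mostly those of more abundant genes. The share among other entries under 1 FPKM was not taken, so the counts are not a result about scarce lincRNA genes.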
